A study of Homo sapiens with 15 samples.

Results

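The genes described here are 34 genes of cholesterol and fatty acid synthesis and of the regulators that set its pace, measured by RNA sequencing in 15 libraries. They comprise 18 enzymes of cholesterol synthesis (7 of the early mevalonate steps and 11 of the sterol steps), the sterol carrier STARD4, 5 genes that control SREBP, 5 LXR receptors and targets, and 5 genes of fatty acid synthesis and desaturation. They are 34 of the 16382 genes listed for MRC5 and of the 16076 listed for H196, and each was found once in each table. The set was chosen by its functions together with measured values: INSIG1 and ABCA1 were selected on being higher in co-cultured fibroblasts and lower in co-cultured H196 cells. Their behaviour in the co-culture of MRC5 with H196 is therefore a description, and no p-value is given for it. P-values are given for fibroblasts beside H69 cells, and there only for genes other than INSIG1 and ABCA1.

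MRC5 is a human fetal lung fibroblast line, used here as a model of cancer-associated fibroblasts (CAFs). H196 is a small cell lung cancer (SCLC) line of the non-neuroendocrine (non-NE) type, and H69 is an SCLC line of the neuroendocrine (NE) type. MRC5 cells were grown alone (MRC5_Mo), beside H69 (MRC5_CoH69) or beside H196 (MRC5_CoH196). H196 cells were grown alone (H196_Mo) or beside MRC5 (H196_Co). Each culture lasted a week, with 3 libraries in each of the 5 groups and no added agent or gene edit in any of them. In the paper's methods a porous membrane separated the partners, with the inducing cells on a transwell insert and the induced cells in the well. One line stands for each cell type, the H69 cells themselves are not analysed here, and the libraries are described as parallel replicates, so p-values measure the spread between these libraries.

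Cells make cholesterol from acetyl-CoA through mevalonate, squalene and lanosterol. When sterols in the endoplasmic reticulum run low, SCAP escorts the SREBP transcription factors to the Golgi, where they are cut free to switch on the genes of this pathway. When sterols are plentiful, the INSIG proteins hold SCAP in the endoplasmic reticulum. INSIG1 is itself a target of SREBP, while INSIG2 is less dependent on it. The liver X receptors (LXRs) sense oxidised sterols and switch on export, above all through ABCA1, and they also raise SREBF1 and SCD.

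Library totals ran from 18476890 to 19170560 counts for MRC5 and from 16073597 to 17358349 for H196. All 9 fibroblast markers were at 1 FPKM or more in every MRC5 group, and their summed level was 5140 to 5730 FPKM in MRC5_Mo, 5920 to 6110 in MRC5_CoH69 and 2520 to 2670 in MRC5_CoH196. The same sum was at most 0.62 FPKM in H196 libraries. In fibroblasts it was carried mainly by 2 collagen genes. COL1A1 was at 2524 to 2735 FPKM in MRC5_Mo and 739 to 810 in MRC5_CoH196, and COL1A2 at 1828 to 2100 and 1156 to 1229. PDGFRB went the other way, at 58 to 63 FPKM and 82 to 87. Of the 9 markers, 4 had log2 fold changes above 0 in MRC5_CoH196 and 5 below, with a median of -0.07. Of the 9 neuroendocrine markers, none reached 1 FPKM in any MRC5 group, where their sum was at most 1.18 FPKM, also beside H69. In H196, 4 of them (CHGB, SCG2, SYP and DLL3) exceeded 1 FPKM, although the line is classed as non-NE. CHGB, at 17.5 to 20.0 FPKM in H196, was at 0.07 to 0.12 FPKM in MRC5_CoH196. The 5 markers of non-NE SCLC were present in both lines. The leukocyte marker CD68 was at 40.7 to 82.3 FPKM across all libraries. The epithelial sum, carried by KRT8 and KRT18 and in MRC5 also by KRT19, was 106 to 144 FPKM in MRC5 and 179 to 232 in H196. Endothelial markers summed to at most 0.11 FPKM. In bulk libraries, fewer cells that express a gene and less RNA of it per cell cannot be told apart.

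To show the control sequences beside the values, the 250 bases upstream of the annotated start are printed for 5 genes whose levels carry the contrasts below. INSIG1 (chr7:155297628-155297877, plus strand) and ABCA1 (chr9:104928156-104928405, minus strand) had opposite directions in the partners. INSIG2 (chr2:118088221-118088470, plus strand) was higher in both, HMGCS1 (chr5:43313413-43313662, minus strand) was lower in both, and SCD (chr10:100346983-100347232, plus strand) held the second largest level among the 34 genes in H196. The sequences are from RefSeq on GRCh38.p14, written 5′ to 3′ along the gene. For HMGCS1 the start used lies inside the gene as the deposited annotation places it (43287321 to 43313477), so part of its window lies within the gene. Capitals mark, on either strand, CACNCCAC (the core of the sterol regulatory element that SREBP binds), CCAAT (the box bound by NF-Y, a common partner of SREBP) and ACGTG (a core shared by E-boxes and hypoxia response elements). A CACGTG palindrome holds ACGTG on both strands and counts for it.
INSIG1: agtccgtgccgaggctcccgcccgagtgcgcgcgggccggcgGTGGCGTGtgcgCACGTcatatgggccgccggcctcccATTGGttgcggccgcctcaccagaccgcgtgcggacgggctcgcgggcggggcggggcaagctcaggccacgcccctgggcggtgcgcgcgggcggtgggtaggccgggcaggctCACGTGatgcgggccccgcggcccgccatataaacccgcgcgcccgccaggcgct
INSIG2: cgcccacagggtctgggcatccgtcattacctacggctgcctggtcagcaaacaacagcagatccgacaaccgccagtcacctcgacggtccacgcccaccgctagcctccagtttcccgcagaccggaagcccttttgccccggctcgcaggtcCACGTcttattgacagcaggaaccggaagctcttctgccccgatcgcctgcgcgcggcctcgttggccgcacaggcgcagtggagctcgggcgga
ABCA1: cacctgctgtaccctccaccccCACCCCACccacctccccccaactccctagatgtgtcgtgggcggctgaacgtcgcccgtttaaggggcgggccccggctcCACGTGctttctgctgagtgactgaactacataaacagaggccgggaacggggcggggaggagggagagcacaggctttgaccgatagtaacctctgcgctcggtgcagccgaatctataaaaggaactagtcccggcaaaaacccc
SCD: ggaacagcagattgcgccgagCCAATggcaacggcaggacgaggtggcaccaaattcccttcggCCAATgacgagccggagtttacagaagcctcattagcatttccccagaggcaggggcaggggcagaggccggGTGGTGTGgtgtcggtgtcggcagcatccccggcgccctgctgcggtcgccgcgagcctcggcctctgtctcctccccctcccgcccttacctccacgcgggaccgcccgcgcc
HMGCS1: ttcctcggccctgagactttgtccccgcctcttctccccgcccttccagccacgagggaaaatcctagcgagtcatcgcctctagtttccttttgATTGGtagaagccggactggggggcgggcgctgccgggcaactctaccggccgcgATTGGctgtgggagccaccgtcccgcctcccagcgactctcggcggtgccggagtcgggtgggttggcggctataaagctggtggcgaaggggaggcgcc

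A RefSeq promoter was at hand for 29 of the 34 genes. CACNCCAC stood within 250 bases upstream of a start in 7 of these 29 (ABCA1, ACACA, IDI1, INSIG1, SC5D, SCD and SREBF2), against 4.87% of all 35116 promoter windows. CCAAT was present in 20 of 29, against 32.0% of windows, and ACGTG in 8 of 29, against 18.5%. GGGCGG, the general box bound by Sp1, is not marked in the sequences above. It was present in 28 of 29, against 42.6% of windows, so a higher share in this set was not particular to the SREBP-related motifs. Several genes have more than 1 window, so their chance of a match is larger than that of a single window. In the INSIG1 sequence a CACNCCAC match began 208 bases before the start, a CCAAT match 170 bases before it and the nearest ACGTG matches 55 and 54 bases before it, as a palindrome. The printed INSIG2 window held a single ACGTG, 95 bases before the start. The ABCA1 window held CACNCCAC 228 bases and CACGTG 147 bases before the start. Of the motifs marked by capitals, HMGCS1 held only the CCAAT box, at 155 and 100 bases before the start used for it. A match of letters is a description and does not show binding.

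Grown alone, the 2 lines differed widely in these genes. FPKM (fragments scaled by gene length and library total, which allows comparison between genes) was higher in every H196_Mo library than in every MRC5_Mo library for 25 of the 34 genes, lower for 4 (LSS, NSDHL, NR1H2 and FADS2) and overlapping for 5 (MSMO1, SC5D, NR1H3, ABCA1 and ABCG1). The median ratio of H196_Mo to MRC5_Mo was 2.19 over the 34 genes and 1.31 over all genes at 1 FPKM or more in both lines. The lines come from tables made separately, so the ratios carry no test. The paper names different media for the SCLC lines (RPMI) and MRC5 (MEM), so line and medium cannot be told apart in these ratios. It does not state the medium of the co-cultures. Where co-cultured cells are compared with cells alone, the partner and a possible change of medium therefore cannot be told apart. SCD, which places the first double bond in saturated fatty acids, was at 242 ± 5.87 FPKM (SD, n = 3) in H196_Mo and 22.9 ± 1.78 in MRC5_Mo, a ratio of 10.6. TM7SF2, a sterol reductase, had the largest ratio, 12.4, and FADS2, a desaturase of polyunsaturated fatty acids, the smallest, 0.223. FDPS, which makes farnesyl diphosphate, had the highest level of the set in both lines grown alone, 325 FPKM in H196_Mo and 97.2 FPKM in MRC5_Mo.

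**Figure D1:**
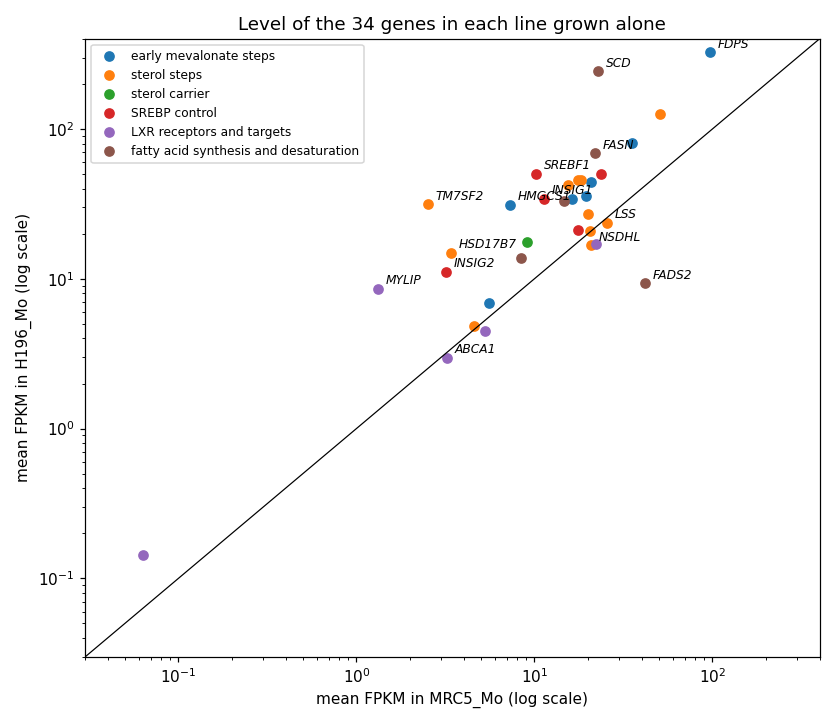
Mean FPKM of each of the 34 genes in H196_Mo (vertical, log scale) against MRC5_Mo (horizontal, log scale), with n = 3 libraries each and colours for the roles. Most points lie above the line of equality, SCD and TM7SF2 lie farthest above it (ratios 10.6 and 12.4), and FADS2 lies farthest below it (0.223).

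For the comparisons below, levels of one gene are given as CPM scaled by the TMM factors, the scale of the edgeR fits, and a gene was called when its Benjamini-Hochberg adjusted p in edgeR's quasi-likelihood test was under 0.05 and its absolute log2 fold change above 0.58. Of the 34 genes, 33 passed the filter on low counts in each line. ABCG1, a sterol exporter and LXR target, did not, with 2 to 8 counts in each MRC5 library and 1 to 11 in each H196 library.

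INSIG1 was the gene of the set with the widest contrast between the partners. It was at 30.0, 28.0 and 28.3 CPM in MRC5_Mo, 23.4, 23.2 and 27.5 in MRC5_CoH69, and 155, 172 and 170 in MRC5_CoH196. Every MRC5_CoH196 library stood far above all other fibroblast libraries, while the MRC5_CoH69 libraries stood just below those of MRC5_Mo. In H196 it went the other way, from 91.3, 82.5 and 89.8 CPM in H196_Mo to 58.4, 55.9 and 50.9 in H196_Co, with no overlap. The log2 fold change was 2.52 ± 0.06 (SE) in MRC5_CoH196, which is 5.75-fold and rank 144 from the top of 12819 genes tested, and -0.67 ± 0.08 in H196_Co. INSIG1 lies on chromosome 7 at 155297878 to 155324994 (GRCh38.p13).

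INSIG2 was higher in both partners. It was at 9.35, 10.8 and 9.55 CPM in MRC5_Mo and at 58.8, 62.0 and 58.8 in MRC5_CoH196, a log2 fold change of 2.60 ± 0.07. Beside H69 it was at 11.2, 9.99 and 11.5 CPM, overlapping MRC5_Mo. In H196 it went from 36.8, 36.2 and 33.3 CPM to 77.4, 83.2 and 66.4, a log2 fold change of 1.09 ± 0.09. The ratio of INSIG1 to INSIG2 FPKM differed little between fibroblasts alone (3.16 to 3.95) and beside H196 (3.21 to 3.48), whereas in H196 it was 2.80 to 3.35 alone and 0.822 to 0.939 in co-culture. Summed over the 2 genes, CPM on the library totals were 40.4 ± 0.792 (SD, n = 3) in MRC5_Mo and 209 ± 12.0 in MRC5_CoH196, but 127 ± 6.55 in H196_Mo and 127 ± 12.0 in H196_Co.

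ABCA1, the membrane pump that loads cholesterol onto lipoproteins, followed the direction of INSIG1. It was at 33.97, 30.96 and 29.41 CPM in MRC5_Mo and at 74.0, 76.5 and 76.2 in MRC5_CoH196, without overlap. The H196 values were 29.2, 28.6 and 30.4 CPM alone and 14.0, 17.9 and 17.7 in co-culture, also without overlap. Its log2 fold change was 1.26 ± 0.05 in MRC5_CoH196 and -0.83 ± 0.10 in H196_Co. Beside H69 it was at 36.2, 34.7 and 34.8 CPM, just above all MRC5_Mo libraries (log2 fold change 0.16 ± 0.06). ABCA1 lies on chromosome 9 at 104781006 to 104928155 (GRCh38.p13).

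**Figure D2:**
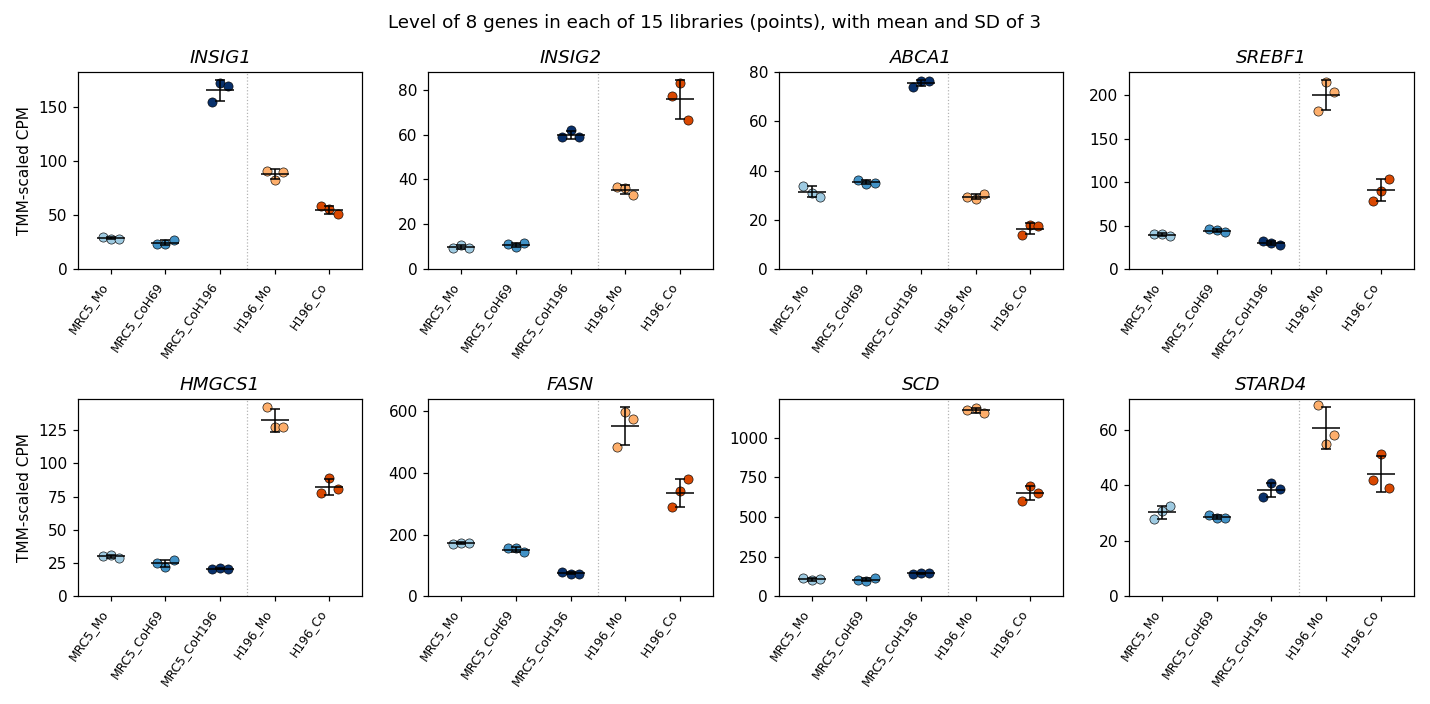
TMM-scaled CPM (vertical, from 0) of 8 genes in each of the 15 libraries (points) of the 5 groups, with mean and SD of 3 libraries. INSIG1 and ABCA1 are highest in MRC5_CoH196 and lower in H196_Co than in H196_Mo, whereas INSIG2 is higher in both co-cultures with the partner line.

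The comparison of MRC5_CoH196 with MRC5_Mo asks what fibroblasts do beside a non-NE line. Of the 33 genes tested, 3 were called higher (INSIG1, INSIG2 and ABCA1) and 13 lower, beside 17.2% and 14.7% of all genes tested, in a comparison that the choice of genes used. By overlap alone, 7 stood above and 23 below every MRC5_Mo library, beside 37.7% and 37.9% of all genes. The median log2 fold change was -0.48 over the 33 genes and -0.00300 over all genes. On log2(FPKM + 1), where no composition factor is applied, the median of all genes was -0.13 and that of the set -0.59, and changes below are relative to the TMM scale.

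Among the 7 early mevalonate genes, 6 were called lower and all 7 had fold changes below 0. ACAT2, which joins 2 acetyl-CoA, was at 39.3, 43.2 and 44.2 CPM in MRC5_Mo and at 15.1, 16.8 and 17.4 in MRC5_CoH196. No library of one group reached the other, and its log2 fold change of -1.36 ± 0.07 was the lowest of the set. MVK, which phosphorylates mevalonate, went from 11.7, 10.6 and 11.2 CPM to 5.23, 4.09 and 4.04 (-1.32 ± 0.11). PMVK, the next kinase, gave -1.04 ± 0.09, the isomerase IDI1 -0.85 ± 0.08, the decarboxylase MVD -0.70 ± 0.07 and FDPS -0.66 ± 0.05. HMGCS1, which makes HMG-CoA, was at 30.1, 30.9 and 29.3 CPM alone and 20.9, 21.6 and 20.3 beside H196, and its log2 fold change of -0.52 ± 0.07 lay inside the limit. ACAT2 shares exonic sequence with TCP1 and SOD2 on the opposite strand and MVK with MMAB, and since the library preparation is not stated to keep strand, reads of such pairs cannot be told apart.

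Of the 11 genes of the sterol steps, 4 were called lower (EBP -0.89 ± 0.10, NSDHL -0.66 ± 0.08, DHCR7 -0.66 ± 0.06 and LSS -0.59 ± 0.04) and none higher. LSS closes the ring system to lanosterol, NSDHL helps to remove methyl groups, EBP moves a double bond and DHCR7 makes the last reduction to cholesterol. LSS was the called gene nearest to the limit, and its fold change moved to -0.57 without MRC5_CoH196 replicate 2 and to -0.58, under the limit, without MRC5_Mo replicate 3. SQLE, the squalene epoxidase, was at 39.2, 40.5 and 39.2 CPM in MRC5_Mo and at 26.6, 29.9 and 29.4 in MRC5_CoH196 (-0.47 ± 0.06), with no overlap. FDFT1 (squalene synthase), MSMO1, HSD17B7 and CYP51A1 (lanosterol demethylase) gave fold changes of -0.45, -0.41, -0.34 and -0.16, and TM7SF2 overlapped. SC5D, a desaturase that acts near the end of the route, stood above every MRC5_Mo library instead (0.28 ± 0.06, and 0.09 on log2(FPKM + 1)). HSD17B7 has a near-identical pseudogene copy, so its counts are uncertain. Summed over the 18 enzymes, CPM on the library totals were 733 ± 7.33 (SD, n = 3) in MRC5_Mo, 645 ± 11.4 in MRC5_CoH69 and 443 ± 14.1 in MRC5_CoH196.

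Of the other genes that control SREBP, SREBF1, which encodes SREBP1, was at 41.1, 40.8 and 37.7 CPM in MRC5_Mo and 32.9, 29.8 and 27.9 in MRC5_CoH196 (-0.40 ± 0.06). SREBF2, which encodes the form most tied to cholesterol synthesis, was at 117, 111 and 108 CPM and at 96.9, 97.5 and 92.1 (-0.23 ± 0.05). SCAP was at 68.2, 62.9 and 62.9 CPM and at 46.0, 42.6 and 42.8 (-0.56 ± 0.05). None of the 3 overlapped between the groups, and none passed the fold limit. SCAP lay just inside it, and passed it at -0.60 without MRC5_CoH196 replicate 1 and at -0.58 without MRC5_Mo replicate 2 or replicate 3.

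Of the LXR receptors, NR1H2 (LXR beta) stood above every MRC5_Mo library (0.48 ± 0.05) and NR1H3 (LXR alpha) overlapped (-0.00420 ± 0.12). MYLIP, an LXR target that encodes a ubiquitin ligase limiting lipoprotein uptake, was at 4.09, 3.56 and 2.53 CPM in MRC5_Mo and at 2.50, 2.76 and 1.94 in MRC5_CoH196. These libraries overlapped, and the fold change of -0.50 ± 0.19 moved to -0.61 without MRC5_CoH196 replicate 2 and to -0.67 without MRC5_Mo replicate 3, past the limit. STARD4, which carries cholesterol between membranes, was at 27.8, 30.8 and 32.5 CPM in MRC5_Mo and at 35.8, 40.9 and 38.6 in MRC5_CoH196 (0.34 ± 0.06), but its difference on log2(FPKM + 1) was 0.00445, so that its direction rests on the TMM scale.

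Of the 5 fatty acid genes, 3 were called lower in MRC5_CoH196. FASN, the fatty acid synthase, was at 169, 174 and 174 CPM in MRC5_Mo and 80.0, 74.2 and 73.1 in MRC5_CoH196 (-1.19 ± 0.05). FADS2 went from 116, 111 and 110 CPM to 52.3, 54.8 and 53.3 (-1.07 ± 0.05). ACACA, the acetyl-CoA carboxylase that feeds FASN, gave -0.78 ± 0.05 and FADS1 -0.48 ± 0.05. FADS1 and FADS2 share exonic sequence on opposite strands. SCD differed in sign from the rest of its group, at 118, 101 and 107 CPM alone and 145, 146 and 147 beside H196 (0.42 ± 0.06).

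**Figure D3:**
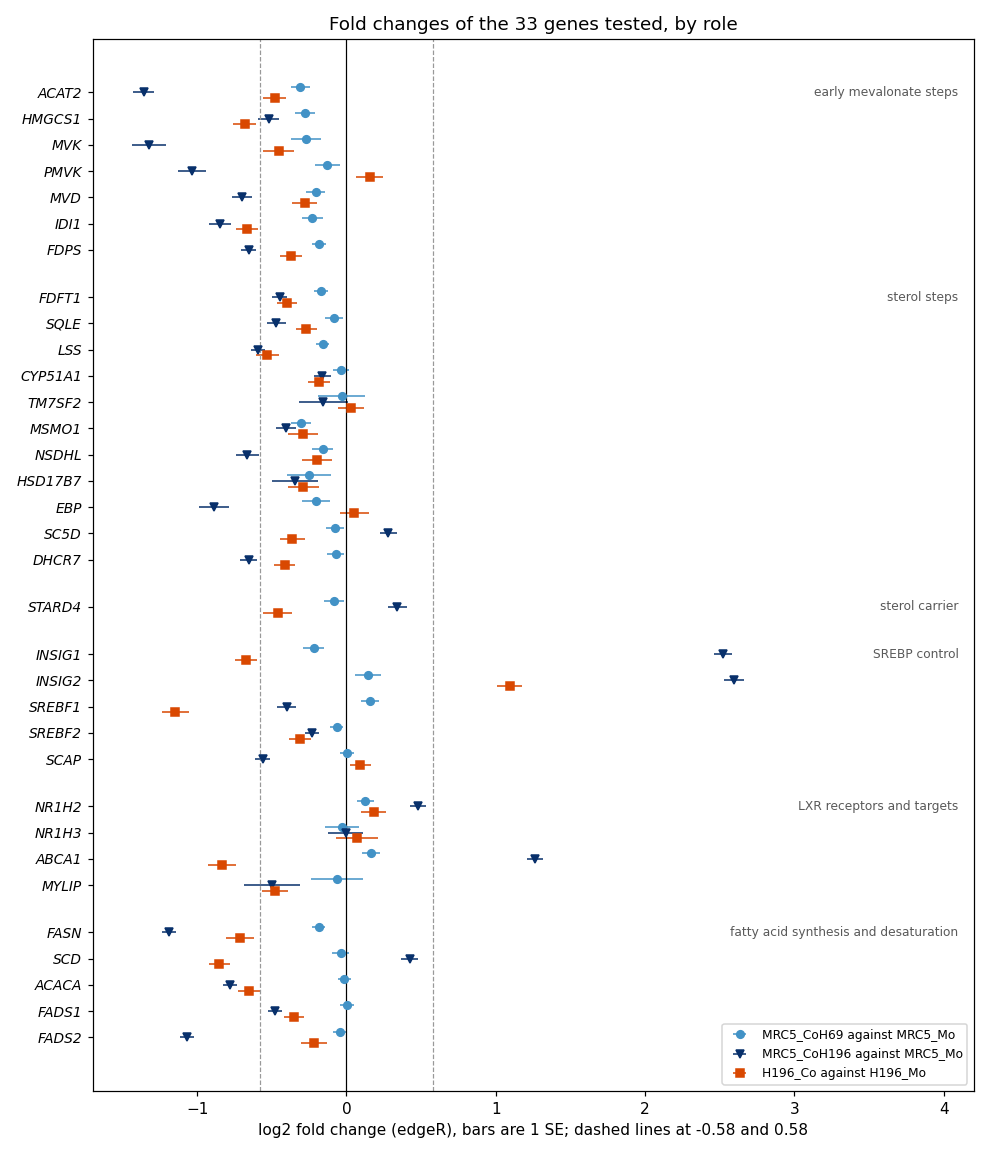
Log2 fold change (horizontal, with bars of 1 SE) of the 33 genes tested (rows, grouped by role) in MRC5_CoH69 and MRC5_CoH196 against MRC5_Mo and in H196_Co against H196_Mo, with dashed lines at the fold limit of 0.58. The early mevalonate genes lie left of 0 in both fibroblast comparisons, INSIG1 and INSIG2 lie beyond 2.5 in MRC5_CoH196, and SREBF1 is lowest in H196_Co at -1.15.

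The comparison of H196_Co with H196_Mo asks what the cancer cells do beside fibroblasts. Of the 33 genes tested, 1 was called higher (INSIG2) and 8 lower, beside 3.26% and 0.601% of all genes tested, again in a comparison that the choice of genes used. By overlap alone, 2 stood above (INSIG2 and SCAP) and 24 below every H196_Mo library, beside 20.2% and 17.0% of all genes. The median log2 fold change was -0.36 over the set and -0.00146 over all genes.

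SREBF1 had the lowest fold change of the set in H196. It was at 182, 216 and 204 CPM in H196_Mo and at 78.4, 89.8 and 104 in H196_Co. All 3 co-culture libraries lay below all 3 of the cells alone, and the log2 fold change of -1.15 ± 0.09 ranked 12797 from the top of 12806 genes tested. SREBF2 was at 223, 250.5 and 236 CPM alone and 174, 200.5 and 197 in co-culture (-0.31 ± 0.07), which left the ratio of SREBF1 to SREBF2 FPKM at 0.980 to 1.02 in H196_Mo and 0.536 to 0.636 in H196_Co. SCAP was at 78.0, 82.0 and 80.8 CPM alone and 84.0, 83.2 and 89.5 in co-culture (0.09 ± 0.07). On FPKM its libraries overlapped (21.05 to 21.63 alone and 21.04 to 22.54 in co-culture), so that its side rests on the TMM scale.

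Of the fatty acid genes, 3 of 5 were called lower in H196 and none higher. SCD was at 1176, 1187 and 1156 CPM in H196_Mo and 604, 693 and 653 in H196_Co, far from overlap (-0.85 ± 0.07). FASN went from 483, 596 and 575 CPM to 289, 340 and 380 (-0.71 ± 0.09). ACACA gave -0.65 ± 0.08, and -0.58, under the limit, without H196_Co replicate 1. FADS1 and FADS2 gave -0.35 and -0.22. Summed over the 5 genes, CPM on the library totals were 2057 ± 46.0 (SD, n = 3) in H196_Mo and 1160 ± 105 in H196_Co.

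Of the early mevalonate genes, HMGCS1 and IDI1 were called lower in H196. HMGCS1 was at 142, 127 and 127 CPM in H196_Mo and at 77.7, 89.2 and 80.4 in H196_Co (-0.68 ± 0.08). IDI1 was at 75.8, 69.5 and 74.8 CPM and at 46.0, 48.0 and 44.7 (-0.67 ± 0.07). ACAT2, MVK, FDPS and MVD stood below every H196_Mo library with fold changes of -0.48, -0.45, -0.37 and -0.28, while PMVK overlapped (0.16 ± 0.09). No gene of the sterol steps passed the fold limit, with LSS nearest to it at -0.53 ± 0.08 and at -0.61, past the limit, without H196_Co replicate 3. SQLE was at 115, 108 and 106 CPM and at 90.3, 96.0 and 86.7 (-0.27 ± 0.07). STARD4 was at 69.05, 54.8 and 58.2 CPM and at 41.8, 51.3 and 39.0 (-0.46 ± 0.10), and it passed the limit at -0.59 without H196_Co replicate 2. The 18 enzymes summed to 1572 ± 5.58 CPM (SD, n = 3) in H196_Mo and 1161 ± 2.37 in H196_Co. Among LXR targets, MYLIP was at 22.1, 21.8 and 22.7 CPM alone and 14.6, 17.0 and 16.2 in co-culture (-0.48 ± 0.09), while NR1H2 and NR1H3 overlapped.

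Set side by side, the co-cultured partners shared the lower level of most of these genes and parted on a few. Of the 33 genes, 18 stood below every library of the cells alone in both lines, beside 9.90% of the 11743 genes tested in both. INSIG2 was the 1 gene above in both, beside 12.2% of all genes. The opposite sides were taken by 5 genes above in MRC5_CoH196 and below in H196_Co (INSIG1, ABCA1, SCD, STARD4 and SC5D), beside 3.82% of all genes, and by SCAP, which was below in MRC5_CoH196 and above in H196_Co, beside 3.75%. Since INSIG1 and ABCA1 were chosen for this pattern, the count is a description. The side of SCAP in H196_Co rests on the TMM scale, since its FPKM overlapped there. The summed level of fibroblast markers, carried mainly by collagen genes, differed between MRC5_CoH196 and MRC5_Mo as given above, and the part of such shifts in these values was not tested. RNA of H196 cells in the fibroblast libraries is bounded by CHGB, which was at most 0.12 FPKM there.

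**Figure D4:**
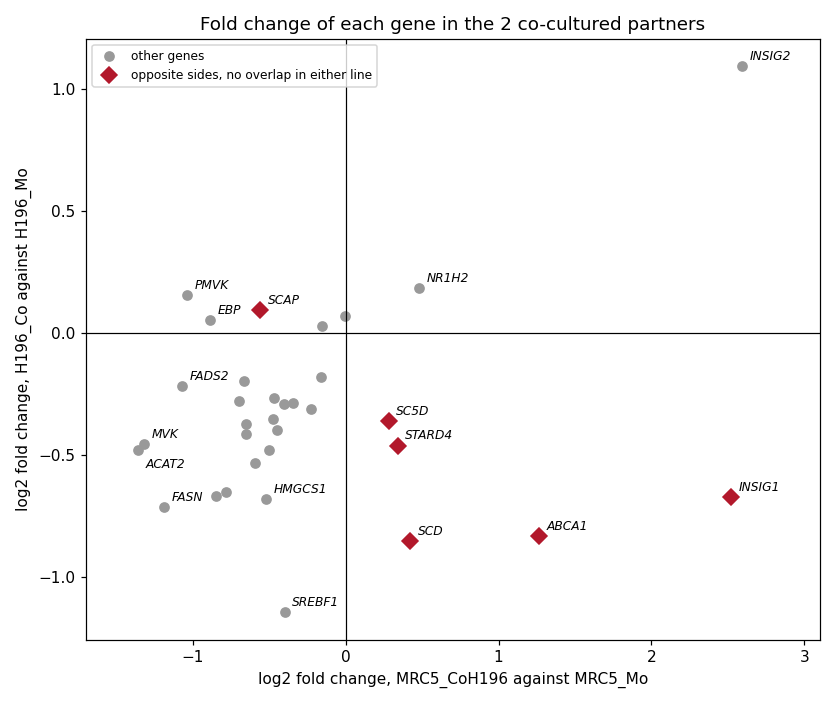
Log2 fold change of each of the 33 genes in H196_Co (vertical) against that in MRC5_CoH196 (horizontal), each relative to the cells grown alone. Red diamonds mark the 6 genes whose libraries do not overlap on TMM-scaled CPM and lie on opposite sides in the lines, among which INSIG1 (2.52 and -0.67) and ABCA1 (1.26 and -0.83) lie farthest from the origin, and most other points lie in the lower left.

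Fibroblasts beside the NE line H69 are the comparison that did not choose these genes, other than INSIG1 and ABCA1, chosen as higher in co-cultured fibroblasts. With the fold limit, no member of the set was called in either direction by edgeR or by DESeq2, beside 0.421% of all genes higher and 0.133% lower. At an unadjusted p under 0.05, 13 were lower and 3 higher, beside 9.45% and 10.6% of all genes. INSIG1 is among these 13 and ABCA1 among these 3, and for both this is a description, since they were chosen on fibroblast values. With the adjusted p alone, 8 were lower and none higher in edgeR, beside 2.93% of all genes lower and 3.78% higher, and DESeq2 gave 7 lower. By overlap, 15 stood below and 3 above every MRC5_Mo library, beside 12.1% and 13.6% of all genes, with INSIG1 again among those below and ABCA1 among those above. The median log2 fold change was -0.08 over the set and -3.36e-05 over all genes, and 27 of 33 were below 0. This comparison uses the same MRC5_Mo libraries as that with H196, so the directions in the 2 are not independent.

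Of the early mevalonate genes, all 7 stood below every MRC5_Mo library, and 4 had an adjusted p under 0.05. ACAT2 was at 31.9, 34.7 and 35.6 CPM beside H69, with a log2 fold change of -0.31 ± 0.06 and an edgeR adjusted p of 0.00215. HMGCS1 was at 24.8, 21.9 and 27.6 CPM (-0.28 ± 0.07, edgeR adjusted p = 0.0136). FDPS gave -0.18 ± 0.05 (edgeR adjusted p = 0.0146) and IDI1 -0.23 ± 0.07 (edgeR adjusted p = 0.0492), while MVD, at -0.21 ± 0.06, just missed (edgeR adjusted p = 0.0502). Of the sterol steps, 11 of 11 had fold changes below 0 and 3 passed: MSMO1, which removes methyl groups from the sterol, at 32.3, 28.9 and 31.0 CPM beside H69 against 37.3, 38.9 and 37.5 alone (-0.30 ± 0.07, edgeR adjusted p = 0.00443), LSS (-0.16 ± 0.04, 0.0224) and FDFT1 (-0.17 ± 0.05, 0.0371). FASN was the fatty acid gene that passed, at 156, 155 and 143 CPM beside H69 (-0.19 ± 0.05, edgeR adjusted p = 0.0119), and FADS1, FADS2, ACACA and SCD lay between -0.05 and 0.00460. The count of 8 fell to 4 without MRC5_CoH69 replicate 1 or replicate 2, to 2 without MRC5_Mo replicate 2 and to 3 without MRC5_Mo replicate 3. ACAT2 and MSMO1 passed in every such run.

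Among the regulators tested beside H69, no adjusted p was under 0.05. SREBF1 was at 45.9, 44.8 and 42.5 CPM, above every MRC5_Mo library (0.16 ± 0.06, edgeR adjusted p = 0.120). SREBF2 was at 107.8, 108.2 and 105 CPM (-0.07 ± 0.04, edgeR adjusted p = 0.453). SCAP gave 0.00352 ± 0.05 (edgeR adjusted p = 0.981), NR1H2 0.13 ± 0.06 (0.192) and INSIG2 0.14 ± 0.09 (0.396). INSIG1 had a fold change of -0.22 ± 0.07, opposite in sign to that beside H196. SQLE was at 34.6, 38.1 and 39.5 CPM (-0.08 ± 0.06, edgeR adjusted p = 0.470), STARD4 at 29.5, 28.3 and 28.2 CPM (-0.08 ± 0.07, 0.539), SCD at 106, 96.7 and 115 CPM (-0.04 ± 0.06, 0.779) and MYLIP at 2.90, 3.40 and 3.43 CPM (-0.06 ± 0.17, 0.883), all overlapping MRC5_Mo.

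The partner lines can also be compared through the fibroblasts beside them. In MRC5_CoH196 against MRC5_CoH69, 3 genes were called higher (INSIG1 2.74 ± 0.06, INSIG2 2.45 ± 0.07 and ABCA1 1.10 ± 0.05) and 9 lower, beside 15.2% and 13.1% of all genes, with the libraries of MRC5_CoH196 again used in the choice. The 9 were ACAT2 (-1.05 ± 0.07), MVK, FADS2, FASN, PMVK, ACACA, EBP, IDI1 and DHCR7 (-0.58 ± 0.06). IDI1 fell inside the limit without MRC5_CoH196 replicate 1 or replicate 3 (-0.57 each) or without MRC5_CoH69 replicate 3 (-0.55). DHCR7 fell inside it without MRC5_CoH196 replicate 2 (-0.56) or without MRC5_CoH69 replicate 1 (-0.53). SREBF1 and SCAP, both inside the limit here, passed it without MRC5_CoH196 replicate 1 (-0.62 and -0.60) or without MRC5_CoH69 replicate 3 (-0.58 each).

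Neighbouring pathways were given by lists that hold no gene of the set, chosen with earlier results of these data known. In MRC5_CoH69, none of the genes of these lists was called, beside 0.421% of all genes higher and 0.133% lower. In MRC5_CoH196, 4 of 9 tested genes of the isoprenoid branches were called lower and none higher, led by COQ2 (-1.04 ± 0.11) and PDSS1 (-1.03 ± 0.14), both of ubiquinone synthesis, and DHDDS (-0.70 ± 0.07), of dolichol synthesis. Of 10 other fatty acid genes, 2 were called lower, ELOVL6 (-0.89 ± 0.07), an elongase, and GPAM (-0.61 ± 0.09), which starts glycerolipid synthesis. Of 12 tested genes of cholesterol movement and storage, 4 were called higher and none lower, led by GRAMD1C (1.04 ± 0.12), GRAMD1B (0.75 ± 0.08) and GRAMD1A (0.66 ± 0.06), which move cholesterol from the plasma membrane to the endoplasmic reticulum. Of 8 tested LXR partners and other targets, 4 were called higher and 1 lower, ABCG4 (0.71 ± 0.30), a sterol exporter, among the higher and LPCAT3 (-0.68 ± 0.07), a phospholipid acyltransferase, the lower one. All these counts in MRC5_CoH196 stand beside 17.2% of all genes called higher and 14.7% lower. The lists are short, so the counts are a description.

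In H196_Co, calls in these lists were few, beside 3.26% of all genes called higher and 0.601% lower. ACSL3 (-0.77 ± 0.07), a fatty acyl-CoA ligase, and LPIN1 (-0.58 ± 0.08), a phosphatidate phosphatase, were lower among 10 other fatty acid genes, and FNTB (-0.64 ± 0.13), a farnesyltransferase subunit, was lower among 9 isoprenoid genes. The Hallmark set of cholesterol homeostasis, which holds 22 of the 34 genes, has 49 further genes listed here. Of the 46 of these tested in MRC5, 12 were called higher and 7 lower in MRC5_CoH196, beside 17.2% and 14.7% of all genes. Those with the largest fold changes were ERRFI1 (4.45 ± 0.06), an inhibitor of the EGF receptor, PDK3 (2.62 ± 0.10), a pyruvate dehydrogenase kinase, and NFIL3 (2.51 ± 0.05), a transcription factor, none of which takes part in sterol synthesis. Of the 47 tested in H196, 5 were called higher and 1 lower in H196_Co, beside 3.26% and 0.601% of all genes, led by ALDOC (2.24 ± 0.18), a glycolytic aldolase.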

How the data were processed

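Poly(A) RNA of MRC5 and H196 cells was sequenced in 15 libraries. Reads were filtered with SOAPnuke by the authors and mapped to the genome (GRCh38.p13, HISAT) and to gene sequences (Bowtie2), and their processing notes name HISAT2 2.1.0, Bowtie2 2.3.4.3 and RSEM 1.3.1. The deposited expected counts are estimates per gene without normalization, 93.7% of them whole for MRC5 and 92.1% for H196, and the deposited FPKM values were scaled by gene length and library total by the authors. The authors' TPM and normalized counts (30 columns), fold changes and p-values were not used. Expected counts were rounded and fitted in R 4.3.3 with edgeR 4.0.16 (filterByExpr, TMM, glmQLFit, two-sided glmQLFTest, Benjamini-Hochberg over all genes tested), with the 9 MRC5 libraries in one fit and the 6 H196 libraries in another. SE is the log2 fold change over the square root of F. CPM floors of 3 counts were 0.157 to 0.187, for counting error only. Replicates differed by more than sampling noise (mean chi-square per gene 1.94 to 11.8). DESeq2 1.42.0 and limma 3.58.1 on log2(FPKM + 1) and log2(FPKM + 0.1) were alternatives. The fits were tested on simulated data. Every gene of the set is accounted for, with library values for preset regulators, targets and the largest fold changes, and at most 3 called genes per other list. Some genes of those lists are not reported here. Genes and lists were chosen with earlier results of these data known. Alternatives to the count by adjusted p alone were added after seeing the data. RefSeq promoters (GRCh38.p14) and GENCODE v29 overlaps served for sequences and antisense names. SQLE, ACAT2, FDFT1, FASN and ABCG1 had no RefSeq promoter at hand.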

Additional observations from a re-analysis of the deposited data

Results flagged for a closer look

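Some genes moved in opposite directions in the 2 partners, every co-culture library lying on one side of the libraries of cells grown alone in MRC5 and on the other side in H196. The difference between the lines was not tested. The log2 fold change in MRC5_CoH196 minus that in H196_Co was 3.20 for INSIG1, 2.10 for ABCA1, 1.27 for SCD, 0.80 for STARD4, 0.64 for SC5D and -0.65 for SCAP. INSIG1 and ABCA1 were chosen for this pattern. The STARD4 difference in fibroblasts was 0.00445 on log2(FPKM + 1). SCAP overlapped in H196 on FPKM (21.05 to 21.63 alone and 21.04 to 22.54 in co-culture), so its side there rests on the TMM scale.

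Within fibroblasts, INSIG1 lay below every MRC5_Mo library beside H69 and above every one beside H196, and SREBF1 the reverse. The log2 fold change of MRC5_CoH196 against MRC5_CoH69 was 2.74 for INSIG1 and -0.56 for SREBF1, given without p because those libraries were used in the choice of genes.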

How the results depend on the processing

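No gene that was called in a fit or under an alternative reversed its direction. Of 1815 values of single genes under the alternatives, 42 had the other sign, none of them called and all within 0.14 of 0 on the log2 scale. Beside H69, TM7SF2, at -0.03, became 0.07 without MRC5_CoH69 replicate 3 and 0.05 without MRC5_Mo replicate 1, and SCD, NR1H3, MYLIP, FADS1 and SCAP also changed sign under some settings. In MRC5_CoH69, the 0 genes called lower became 8 with no fold limit. That count of 8 became 4 with limma on log2(FPKM + 1) or on log2(FPKM + 0.1), and ranged from 2 to 8 when 1 replicate was left out. The count higher was then 0 to 1, the 1 being ABCA1 without MRC5_Mo replicate 1. For ABCA1 this is a description, since it was chosen on fibroblast values. In MRC5_CoH196 against MRC5_Mo, the 3 called higher became 7 with no fold limit, and the 13 called lower became 20 with limma on log2(FPKM + 0.1), 24 with no limit and 5 with a limit of 1, and 13 to 14 without 1 replicate. Against MRC5_CoH69, the 3 higher became 7 with no limit and the 9 lower became 14 and 16 with limma at pseudocounts of 1 and 0.1, 21 with no limit, 4 with a limit of 1 and 8 to 10 without 1 replicate. In H196_Co, the 8 lower became 22 with no limit, 1 with a limit of 1 and 7 to 9 without 1 replicate. FPKM carries no composition factor, and on that scale the median of all genes moved to -0.13 and -0.18 in MRC5_CoH196, with 915 and 1437 genes called higher in place of 2207 and 2082 and 2869 lower in place of 1885. The replicate numbers were not shown to pair the libraries (same-number correlations of -0.151 to 0.081). A fit with the replicate block gave 7 lower in MRC5_CoH69 by adjusted p alone, with IDI1 lost (adjusted p = 0.0624, edgeR), and changed no other call. ABCG1 counts are too low to compare.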
